A study of Mus musculus with 8 samples.

Results

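Inhibin, activin and anti-Müllerian hormone (AMH) are related hormones of the TGFβ family. The genes followed here were a list of 10 that encode their subunits, receptors and binding proteins, namely Inha, Inhba, Inhbb, Amh, Amhr2, Acvr2a, Acvr2b, Acvr1b, Fst and Fstl3. Members were taken by symbol from a table of 17127 genes, and 9 of the 10 were found by that rule. Inhba (ENSMUSG00000041324, on chromosome 13), which encodes the βA subunit, was not analysed here. The question was how these genes differed between wild-type testes and testes of mice mutant for Iqch, a gene for an IQ motif-containing protein of the testis.

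Each library came from the whole testis of 1 male mouse aged 4 months. The wild-type group had 4 libraries (wild type 1 to 4) and the group labelled Iqch-/- had 3 (mutants 1, 2 and 4), while mutant 3 was not analysed here. According to the study's methods, the mutants were homozygous for small CRISPR-Cas9 deletions in an exon near the 3′ end of Iqch, in lines named Iqch mu5 and Iqch mu7 made in B6CBAF1 zygotes. The labels do not give the line of each library, and the study names Iqch mu7 as the line in its plot of RNA-seq coverage over the gene. The study left out 1 mutant as an outlier. It described mutant males as infertile and mutant testes as smaller. Germ cells of every DNA content were fewer there, and as a proportion the haploid cells alone were reduced. The groups thus differ in germ cell content as well as in genotype.

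Inhibin is a dimer of the α subunit (Inha) and a β subunit (Inhba or Inhbb), whereas activin is a dimer of β subunits alone. Activin binds a type II receptor (Acvr2a or Acvr2b), which then recruits a type I receptor such as Acvr1b, and the signal passes to the nucleus through SMAD2 and SMAD3. Inhibin occupies the type II receptors without starting that signal, mainly with the co-receptor betaglycan (Tgfbr3). Follistatin (Fst) and the follistatin-like protein encoded by Fstl3 bind activin and keep it from its receptors. AMH signals through its own type II receptor, Amhr2. In the testis, Sertoli cells make inhibin and AMH. Inhibin from the testis lowers follicle-stimulating hormone release by the pituitary, and AMH causes regression of the Müllerian ducts in male fetuses and falls in Sertoli cells at puberty.

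Values are given as CPM, in which the counts of a library have been scaled to a total of 1000000. With the step between CPM values taken as 1 read, libraries held 32064384 to 37551057 reads, and 1 read was worth 0.0266 to 0.0312 CPM. Iqch itself stood at 193 to 217 CPM in wild-type libraries and at 64.8 to 69.2 CPM in mutants. It fell by 1.63 on the log2 scale (SE 0.05, FDR 1.9e-10 by limma), in the direction of the labels. All group differences below were tested with limma on log2(CPM + 0.1), fitted on the 17126 genes that reached 2.2 CPM in 2 or more libraries of a group. A gene was called higher or lower at a false discovery rate (FDR) below 0.01 after Benjamini-Hochberg adjustment over all these genes. Log2 fold changes are mutant minus wild type on that scale.

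Cell type markers moved with genotype. Of 13 Sertoli cell markers tested, 13 were called higher, and their summed level went from 1700 to 1812 CPM in wild-type libraries to 3494 to 3798 CPM in mutants. The Leydig cell list had 7 of 8 higher (1132 to 1345 CPM against 4709 to 4853 CPM) and the macrophage list 6 of 7 (68.7 to 77.1 CPM against 168 to 199 CPM). Single genes made up much of the Leydig and Sertoli sums. Insl3 alone went from 424 to 452 CPM in wild-type libraries to 2918 to 2984 CPM in mutants. Clu, a Sertoli marker, went from 816 to 890 CPM to 1765 to 1877 CPM. Spermatogonial markers had 4 of 7 called higher, endothelial markers 2 of 5 and peritubular myoid markers 1 of 4. Of 7 spermatocyte markers, 1 was called higher and 1 lower. The spermatid list had 7 of 8 called lower and summed to 20250 to 21520 CPM in wild-type libraries and 12790 to 14810 CPM in mutants. Over all genes tested, 36.3% were called higher and 14.2% lower. Some of these counts depended on scaling. After rescaling by size factors, described below, 12 Sertoli markers and 1 spermatogonial marker were called higher. Endothelial markers then had 2 higher and 1 lower, spermatocyte markers 0 higher and 3 lower, and spermatid markers 8 lower. The Leydig, macrophage and peritubular myoid counts were unchanged. In every list, 0 of the markers analysed were at 0 CPM in any library. In whole-testis RNA, fewer cells of a type and less RNA per cell cannot be told apart, and the part of these markers in the results that follow was not tested.

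Of the 9 members tested, 6 were called higher in mutants, 0 lower, and 3 were not called. All 3 ligand genes, 1 of 4 receptor genes and both binding protein genes were called higher. Over all genes the same fit called 50.4%, of which 36.3% of the genes tested were higher and 14.2% lower, so a call by itself was common in these data. The libraries of the groups were fully separated for 6 of the 9 members, against 62.3% of all genes. The median log2 fold change was 0.53 over the members, 0.42 over the members without Fst, and 0.12 over all genes. It was 0.53 for ligands, 0.05 for receptors and 1.63 for binding proteins. The last is the midpoint of 2 unlike values, 2.52 for Fst and 0.73 for Fstl3.

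CPM share a fixed total, and spermatid genes took a smaller part of it in the mutants. After rescaling by size factors, which set the median ratio of each library to a common reference at 1, the median of all genes went from 0.12 to -0.01, a share of 52.1% of genes was called, and the split became 27.0% higher and 25.1% lower. On that scale 4 members were called higher, namely Inha, Amhr2, Fst and Fstl3, and 0 lower. Inhbb and Amh lost their calls. Fst had reached the 2.2 CPM minimum through the mutant libraries alone. Without it, 5 of 8 members were called.

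**Figure D1:**
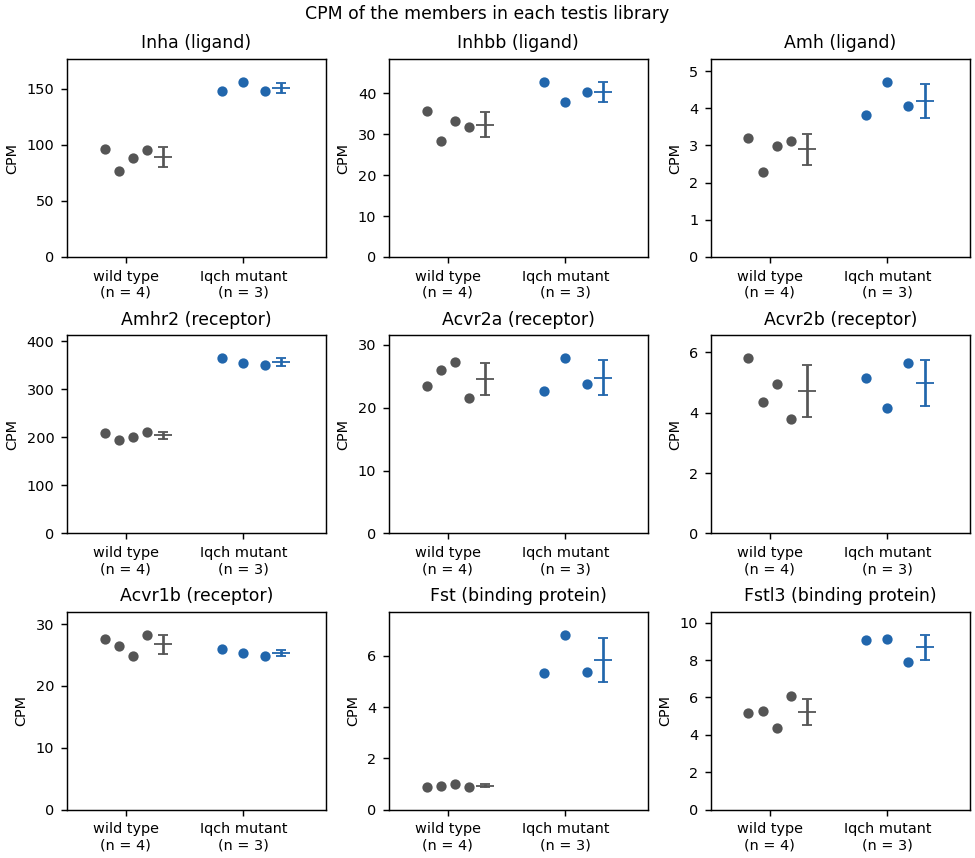
Level in CPM of each of the 9 members in every library, 1 panel a gene, with 4 wild-type libraries in grey and 3 Iqch mutant libraries in blue; the cross bar and whiskers are mean ± SD and every axis starts at 0. All mutant points lie above all wild-type points for Inha, Inhbb, Amh, Amhr2, Fst and Fstl3, and the groups overlap for Acvr2a, Acvr2b and Acvr1b.

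Inha, the gene of the inhibin α subunit (ENSMUSG00000032968, chr1:75482196-75489223, plus strand, GRCm39), was at 96.1, 76.7, 88.1 and 95.7 CPM in wild type 1 to 4. It was at 148, 156 and 148 CPM in mutants 1, 2 and 4. The lowest mutant thus stood well above the highest wild type. Group means were 89.2 ± 9.09 CPM (SD, n = 4) and 150.7 ± 4.85 CPM (SD, n = 3), a ratio of 1.69. The log2 fold change was 0.76 (SE 0.07, 95% interval 0.61 to 0.91, limma FDR 1.3e-06), and 0.63 with size factors (FDR 8.2e-06). Inha shares 1099 bp with Obsl1 on the opposite strand, which went from 49.1 to 56.1 CPM to 78.6 to 82.4 CPM. The strand setting of the counting is not given in the sources used here, so reads of the shared stretch cannot be told apart.

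Inhbb encodes the βB subunit, which joins either Inha in inhibin B or a second βB in activin B (ENSMUSG00000037035, chr1:119343193-119350021, minus strand). Its levels in wild type 1 to 4 were 35.6, 28.4, 33.3 and 31.9 CPM. The mutant libraries 1, 2 and 4 had 42.8, 37.8 and 40.3 CPM. The gap between the groups was narrow, from 35.6 to 37.8 CPM. Means were 32.3 ± 3.02 CPM (n = 4) and 40.3 ± 2.49 CPM (n = 3), and the log2 fold change of 0.32 (SE 0.08, limma FDR 0.00271) was the lowest among the called members. It was 0.19 with size factors (limma FDR 0.0548) and 0.28 without mutant 1 (limma FDR 0.0164), and the gene was not called in either case.

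Amh (ENSMUSG00000035262, chr10:80641077-80643482, plus strand) had low levels at this age. Wild type 1 to 4 had 3.20, 2.27, 2.98 and 3.12 CPM, and the lowest of these rested on 78 reads. Mutants 1, 2 and 4 had 3.82, 4.71 and 4.05 CPM. Means were 2.893 ± 0.424 CPM (SD, n = 4) and 4.195 ± 0.460 CPM (SD, n = 3). Although the groups did not overlap, the gap between them was narrow, from 3.20 to 3.82 CPM. The log2 fold change was 0.53 (SE 0.15, 95% interval 0.20 to 0.86, limma FDR 0.00882). This call was close to the threshold: the limma FDR was 0.0347 with size factors (log2 fold change 0.40), and from 0.01 to 0.0471 when wild type 2, 3 or 4 or mutant 1, 2 or 4 was left out. The call was kept without wild type 1.

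Among the receptors, Amhr2, the type II receptor for AMH, was the one called (ENSMUSG00000023047, chr15:102353769-102363074, plus strand). It was at 209, 195, 199.6 and 212 CPM in wild type 1 to 4. Mutants 1, 2 and 4 had 364, 356 and 349.7 CPM. Both groups were tight and far apart, with means of 204 ± 7.94 CPM (n = 4) and 357 ± 7.46 CPM (n = 3). The log2 fold change of 0.81 had the smallest standard error of the members (SE 0.04, 95% interval 0.72 to 0.90, limma FDR 1.1e-08) and was 0.67 with size factors (FDR 1.1e-07). Amhr2 was also the member with the highest CPM in every library.

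The activin receptors did not pass the test. Acvr2a, a type II receptor (ENSMUSG00000052155, chr2:48703743-48793283, plus strand), was at 23.4, 25.9, 27.3 and 21.5 CPM in wild type 1 to 4 and at 22.6, 27.9 and 23.8 CPM in mutants 1, 2 and 4. The groups lay across each other, and the log2 fold change was 0.01 (95% interval -0.19 to 0.21, limma FDR 0.913). Acvr2b, the other type II receptor (ENSMUSG00000061393, chr9:119231103-119271213, plus strand), was at 3.78 to 5.80 CPM in wild-type libraries and at 4.15 to 5.65 CPM in mutants. Its log2 fold change of 0.08 had the widest interval of the receptors, -0.26 to 0.42 (limma FDR 0.678). Acvr1b, the type I receptor ALK4 (ENSMUSG00000000532, chr15:101071921-101111565, plus strand), was at 24.8 to 28.3 CPM in wild-type libraries and 24.9 to 25.9 CPM in mutants. Its log2 fold change was -0.08 (95% interval -0.21 to 0.06, limma FDR 0.307). With size factors the values became -0.12 for Acvr2a, -0.05 for Acvr2b and -0.21 for Acvr1b, so the sign for Acvr2a and Acvr2b depended on the scale. The lowest limma FDR of these on that scale was 0.0114, for Acvr1b. On deposited CPM the upper bounds of the 3 intervals, at most 0.42, lay below the lower bound for Amhr2, 0.72, and changes within these intervals remain possible. Acvr2a overlaps Orc4 and Acvr2b overlaps 4930516B21Rik, both on the opposite strand. Inhbb, Acvr1b, Fst and Fstl3 also overlap annotated genes on the opposite strand, which were not analysed here. The limit on reads of a shared stretch, given for Inha, holds for all of these members.

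Fst, the gene of follistatin (ENSMUSG00000021765, chr13:114588731-114595521, minus strand), was at 0.868, 0.932, 1.00 and 0.905 CPM in wild type 1 to 4. The lowest of these libraries had 29 reads on the gene. Mutants 1, 2 and 4 had 5.32, 6.83 and 5.38 CPM. It thus went from the least abundant member in CPM to a level above Acvr2b and Amh in the means, from 0.927 ± 0.0577 CPM (n = 4) to 5.84 ± 0.858 CPM (n = 3), a ratio of 6.30. The log2 fold change of 2.52 was the largest of the members (SE 0.16, 95% interval 2.17 to 2.87, limma FDR 5.4e-08). It was 2.40 with size factors (limma FDR 9.4e-08) and ran from 1.82 to 2.63 over the alternatives tried. Its lowest value came with a pseudocount of 1, as a larger pseudocount pulls down the change of a gene at so low a level.

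Fstl3 encodes a secreted relative of follistatin that also binds activins (ENSMUSG00000020325, chr10:79613096-79618464, plus strand). Wild type 1 to 4 had 5.15, 5.30, 4.35 and 6.07 CPM. It was at 9.05, 9.11 and 7.92 CPM in mutants 1, 2 and 4. All mutants were above all wild types, with a ratio of means of 1.67. The log2 fold change was 0.73 (SE 0.12, 95% interval 0.47 to 1.00, limma FDR 1.9e-04), and 0.60 with size factors (FDR 8.5e-04). Both activin-binding proteins were thus called higher on either scale, with Fst changed by far more.

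**Figure D2:**
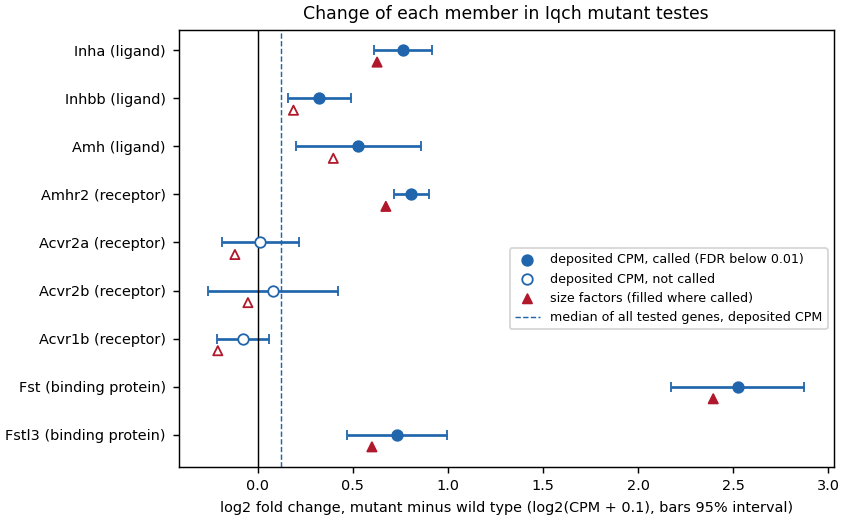
Log2 fold change, mutant minus wild type, of the 9 members grouped by role; circles with 95% intervals are from deposited CPM (4 wild-type and 3 mutant libraries), triangles are from CPM divided by size factors, and filled symbols were called at an FDR below 0.01. Fst stands apart at 2.52, the 3 activin receptors sit around 0, and the other called members lie between 0.32 and 0.81.

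The level of a gene relative to its length allows an order among the members. As CPM per kb of the canonical mRNA in GENCODE, wild-type means ran from 103 ± 4.01 for Amhr2 through 17.3 ± 1.76 for Inha, 7.51 ± 0.703 for Inhbb, 6.02 ± 0.345 for Acvr1b and 4.05 ± 0.424 for Acvr2a. Below them came Fstl3 (2.66 ± 0.359), Amh (1.73 ± 0.254), Fst (0.491 ± 0.0306) and Acvr2b (0.441 ± 0.0804; SD, n = 4). Wild-type ranges of Fst and Acvr2b overlapped (0.460 to 0.532 and 0.352 to 0.541), while those of all other neighbours in this order did not. In mutants, Fstl3 (4.42 per kb) came level with Acvr2a (4.08), and Fst (3.10) reached the range of Amh (2.51), with the libraries of each pair overlapping. This order depended on the length used. With the length of all annotated exons in place of the canonical mRNA, Fst and Acvr2b changed places in wild type (0.197 and 0.423), and wild-type ranges of Fstl3 overlapped those of both Acvr2a and Amh. In mutants, Fst (1.24) then stayed below Amh (2.51), and Fstl3 (3.54) lay above Acvr2a (2.46), with no overlap in either pair. The place of Inha is uncertain because its gene in GENCODE starts 2057 bp upstream of the RefSeq start, and its canonical transcript there is 5157 bp long.

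Ratios between members, taken per kb within a library, do not depend on the scaling of that library. The α to βB ratio (Inha over Inhbb) was 2.253, 2.254, 2.204 and 2.506 in wild type 1 to 4 and 2.888, 3.450 and 3.055 in mutants 1, 2 and 4. The mutant with the lowest ratio exceeded the wild type with the highest. Fst over Inhbb went from 0.0556 to 0.0749 in wild-type libraries to 0.283 to 0.412 in mutants. Fstl3 over Inhbb went from 0.286 to 0.417 to 0.430 to 0.528, with a small gap between the groups. Each activin-binding protein thus had a larger mRNA level relative to the βB subunit in all mutant libraries, and the ratios were not tested. Within the binding proteins, Fst over Fstl3 went from 0.189 ± 0.0364 (n = 4) to 0.6996 ± 0.0849 (n = 3). Groups overlapped for Amhr2 over Amh (means 60.3 and 72.3), Inhbb over Acvr2a (1.87 and 2.32) and Acvr2a over Acvr2b (9.37 and 9.05). Ratios with Inhbb in them carry no account of Inhba, the other partner of Inha.

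The members were also set against the Sertoli markers of the same library. For each library the mean log2 level of the 13 markers was subtracted from that of the member, as a description with no test. This moved every member by about the same amount, so the order and gaps between members are those of the log2 fold changes above, and what it adds is their place relative to the markers. The mutant minus wild-type difference was then -0.11 for Inha, -0.06 for Amhr2, -0.14 for Fstl3 and -0.34 for Amh, each with overlapping libraries. It was -0.55 for Inhbb, -0.79 for Acvr2b, -0.86 for Acvr2a and -0.95 for Acvr1b, each without overlap. Fst alone among the members remained higher, by 1.65, with no overlap. The Sertoli markers themselves spread in log2 fold change from 0.36 (Sox9) to 1.18 (Trf), with a median of 0.92. Inhbb, at 0.32, thus lay close to the lowest marker, and its lack of overlap does not set it apart from the markers. Against the 8 Leydig markers the difference was 0.86 for Fst and from -1.74 to -0.85 for the other members, with no overlap for any of them.

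**Figure D3:**
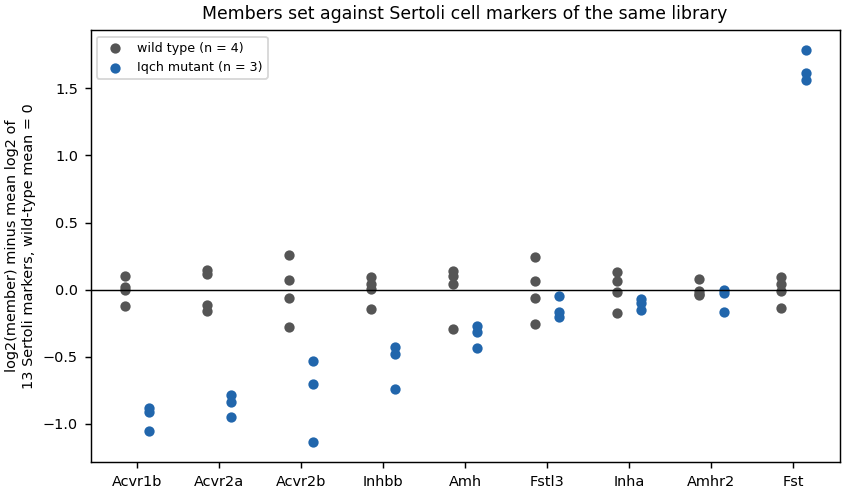
Log2 level of each member minus the mean log2 level of 13 Sertoli cell markers in the same library, with the wild-type mean of each gene set at 0; grey points are 4 wild-type and blue points 3 Iqch mutant libraries. Mutant points of Amh, Fstl3, Inha and Amhr2 overlap the wild-type points, those of Inhbb and the activin receptors lie below them, and those of Fst lie 1.65 above on average.

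Other genes of the pathway were taken from 7 lists by role, 48 genes in all, of which 37 were tested. Of these, 24 were called higher, 2 lower and 11 not called, and their median log2 fold change was 0.39. With size factors 18 were called higher and 3 lower. The counts here and in the lists below stand beside 36.3% of all genes called higher and 14.2% lower. With size factors those shares were 27.0% and 25.1%. None of the 5 other ligands of the activin receptors listed was analysed here.

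Among the other receptors and co-receptors, 4 of 6 tested were called higher, and the same number with size factors. Tgfbr3, betaglycan, through which inhibin gains its hold on the activin receptors, was at 19.4, 21.5, 22.6 and 17.7 CPM in wild type 1 to 4. Mutants 1, 2 and 4 had 37.4, 54.1 and 48.99 CPM, above all wild types but with a wide spread. Its log2 fold change was 1.19 (SE 0.12, limma FDR 1.9e-06). Acvr1, the type I receptor ALK2, which serves AMH and BMP ligands, had a log2 fold change of 0.90 (SE 0.16, limma FDR 4.0e-04). Acvr2a, Acvr2b and Acvr1b were uncalled in the same fit, and the difference between them and these receptors was not tested.

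SMAD proteins carry the signal from receptor to nucleus, and 4 of their 6 genes were called higher and 1 lower. Smad3, a transducer of activin signals, was at 7.88 to 9.96 CPM in wild-type libraries and 19.4 to 20.5 CPM in mutants (log2 fold change 1.18, SE 0.09, limma FDR 3.8e-07). Its partner Smad2 changed less (0.48, limma FDR 2.5e-05). Smad9, on the BMP and AMH branch, fell by 0.88 on the log2 scale (SE 0.20, limma FDR 0.00179), and it had reached the minimum through the wild-type libraries alone. With size factors 4 SMAD genes were called higher and 2 lower, the other being Smad1 of the same branch (-0.28, limma FDR 0.002), which was not called on deposited CPM (-0.14, limma FDR 0.0747). Of 9 inhibitors and cofactors of SMADs, 3 were called higher and 0 lower. Ski, a repressor of SMAD2 and SMAD3 targets, had a log2 fold change of 0.46 (limma FDR 6.2e-04), and Zfyve9, an anchor for these SMADs, had 0.27 (limma FDR 0.00979). With size factors 1 gene of this list was called.

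Proprotein convertases cut the precursors of TGFβ-family hormones into their active form. Furin was at 17.04 to 19.97 CPM in wild-type libraries and 38.73 to 42.48 CPM in mutants (log2 fold change 1.14, SE 0.07, limma FDR 3.5e-08). Pcsk5 (0.96, limma FDR 3.7e-04) and Pcsk7 (0.38, limma FDR 7.6e-04) were called higher too, the latter on deposited CPM and not with size factors. Pcsk6 went the other way, from 10.2 to 13.3 CPM in wild-type libraries to 5.55 to 6.01 CPM in mutants, and fell by 1.02 on the log2 scale (SE 0.10, limma FDR 2.8e-06). This list thus held calls in both directions, on either scale.

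Upstream regulators, the factors known to act on the Amh or inhibin genes, had 8 of 9 tested called higher and 0 lower (6 higher with size factors). Sox9, Wt1 and Gata4 of this list are Sertoli markers as well. Nr5a1, the steroidogenic factor SF-1 of Sertoli and Leydig cells, was at 40.1, 34.1, 36.2 and 43.8 CPM in wild type 1 to 4 and at 109, 129 and 124 CPM in mutants 1, 2 and 4. Its log2 fold change was 1.65 (SE 0.08, limma FDR 9.1e-09). Gata1, a GATA factor of Sertoli cells, was at 9.66 to 11.4 CPM in wild-type libraries and 18.9 to 24.3 CPM in mutants (log2 fold change 1.05, SE 0.10, limma FDR 1.3e-06). Of 3 response genes of SMADs that were tested, Id3 (1.60, SE 0.23, limma FDR 5.3e-05) and Id1 (0.63, limma FDR 0.00283) were called higher and Id2 was not (0.09, limma FDR 0.577). Id1 and Id3 are best known as targets of the BMP branch, and Id1 was not called with size factors (limma FDR 0.0116).

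**Figure D4:**
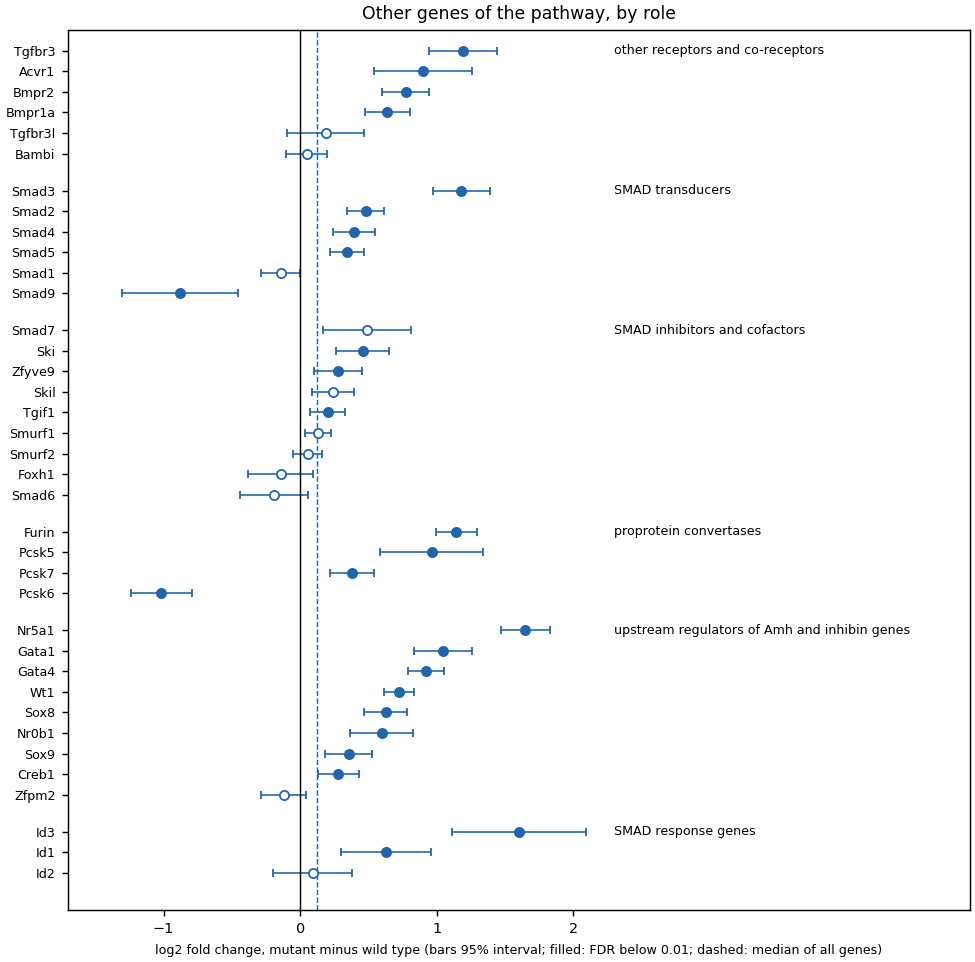
Log2 fold change, mutant minus wild type on log2(CPM + 0.1), of the 37 other pathway genes tested, in blocks by role, with 95% intervals from 4 wild-type and 3 mutant libraries; filled circles were called at an FDR below 0.01 and the dashed line is the median of all genes, 0.12. The 24 genes called higher lie between 0.20 and 1.65, while Smad9 and Pcsk6 lie on the left at -0.88 and -1.02.

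Since Nr5a1 was the upstream regulator with the largest change, the letters AGGTCA, the half-site that NR5A1 and other nuclear receptors can bind, were looked for on both strands in the 250 bases before the RefSeq start. These letters were chosen after the windows had been seen, so their count among the members is a description and tests nothing. Windows came from RefSeq sequences (table build GRCm38.p6) for 8 of the 10 listed members, and each matched once in GRCm39; Amh and Fst had none. The letters occurred in 3 of the 8, against 14.0% of 32851 windows of all genes. All 3 sites found are shown, with the half-site in capitals and 12 bases on each side, on the plus strand:
Inha, chr1:75484172-75484201: ttggggattggcAGGTCAactttgaagagt
Amhr2, chr15:102353560-102353589: caccttcttccaAGGTCAgtaggggtagag
Fstl3, chr10:79612896-79612925: ggccacactttgTGACCTgaccccattgtg

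The first capital letter lies 69 bases before the RefSeq start in Inha, 230 in Amhr2 and 200 in Fstl3, where the half-site reads on the opposite strand. The Inha site lies inside the gene as GENCODE places it. The longer form AAGGTCA, which includes the shorter letters, was found in Amhr2 alone of the 8 and in 4.08% of all windows. The cAMP response element TGACGTCA (1.55% of all windows) and the GATA letters AGATAA (9.99%) were in 0 of the 8 windows. These matches are a description of letters, and binding was not measured here. In base composition, the windows of Inha and Amhr2 had 53.6% and 55.2% GC, close to the median of all windows (52.4%). Their observed to expected CpG ratios of 0.23 and 0.265 lay between the lower quartile (0.167) and the median (0.373) of all windows. The windows of the uncalled receptors Acvr2a, Acvr2b and Acvr1b had 82.0%, 72.8% and 78.8% GC. Among the called members, Inhbb (68.0%) and Fstl3 (71.2%) had GC-rich windows as well.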

How the data were processed

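Whole-testis RNA-seq libraries of 4 wild-type and 3 Iqch mutant mice were used, of 8 samples listed, grouped by their genotype label. Trimmomatic (trimming), Subread (mapping to GRCm39) and featureCounts (reads per gene) were the tools of the authors, who asked for 75 reads or more in no fewer than 2 samples of a group. They deposited CPM, which sum to 1000000 per library. The annotation release is not given in the sources used here. Reads per library were derived from the CPM steps by taking a step as 1 read, and 100% of values were whole multiples of a step within 0.01 read. Differences were tested on log2(CPM + 0.1) by moderated linear models with an intensity trend (limma 3.58.1, R 4.3.3), in a script tested on simulated data. At most 200 changed genes were tested in a simulated run, far fewer than were called here, so the simulations check the code and not these calls. P-values measure the spread between mice. All replicate pairs differed by more than sampling noise.

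The members and lists were chosen with earlier results of these data known. All members were named. Of pathway lists with over 4 tested genes, the 2 called genes with the largest change in each direction were named, and of shorter lists any gene. A regulator in the original lists is not reported here and was left out of all counts of pathway genes. Nr0b1, Smad1, Obsl1, Orc4, 4930516B21Rik and the Sertoli markers among the regulators were named after their values were seen. Coordinates and lengths came from GENCODE M39, which held 99.5% of the genes. Alternatives were size factors, other pseudocounts (1 and 0.01), a minimum of 5 CPM or none, a replicate block, an FDR of 0.05 for the members, each library left out, and, added after seeing the data, Fst left out. Figures were drawn with matplotlib 3.10.9.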

Additional observations from a re-analysis of the deposited data

Results flagged for a closer look

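Of 46 members and other pathway genes checked for a library apart from the rest of the wild-type group, 1 was found. Nr0b1, a nuclear receptor that represses NR5A1, reached 24.6 CPM in wild type 4, while wild type 1 to 3 had 18.1 to 18.5 CPM, so that this gap makes up 0.941 of the group's range, above Dixon's critical value at 95%. Chance gives about 1 such result in 20 groups. Mutants 1, 2 and 4 had 30.1, 32.2 and 27.1 CPM, above all wild types.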

How the results depend on the processing

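The number of members called higher was 4 to 6 over the alternatives tried, with 0 called lower in each. It was 4 with size factors, 4 to 6 when a library was left out, and 5 without Fst. The calls of Inha, Amhr2, Fst and Fstl3 were kept, and Acvr2a, Acvr2b and Acvr1b stayed uncalled, at an FDR of 0.01 in all of them. Amh was not called with size factors, with the replicate block or without any 1 library other than wild type 1, and it was left out by the minimum of 5 CPM. Inhbb was not called with size factors or without mutant 1. With size factors 4294 genes were called lower, against 2428. Pathway genes called lower were 1 in place of 2 with the minimum of 5 CPM, and 1 to 2 when a library was left out, the lower number without mutant 1.

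With the replicate block, 5 members and 7722 genes were called, 7534 of them shared with the 8640 genes called without it. The log2 fold change of Amh was then 0.55 (limma FDR 0.0268). Deviations of same-numbered libraries correlated at 0.026, 0.009 and -0.098 across genes, so the number gave no pairing. Tests on counts, with edgeR and DESeq2, were planned and not run: all CPM fell on whole steps, but too few of them were low enough to establish that a step is 1 read, so the read numbers given rest on that assumption. Levels of Amh and Fst rest on few reads in wild-type libraries (as low as 78 and 29), which limits the precision of their changes.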
